A study of Homo sapiens and Mus musculus with 36 samples.

Results

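The genes described here are 10 transcripts that rise when cells lack oxygen: VEGFA, ADM, EGLN3, ANKRD37, SLC2A1, PDK1, CA9, BNIP3, P4HA1 and NDRG1. They were taken by symbol, with mouse letter case for the mouse line, from the authors' 13 deposited comparison tables, and stand among 26868 genes with a row in at least 1 human table and 16699 in at least 1 mouse table. All 10 had a row in 9 of the human tables. The table for EZH2 knockdown in Huh7 held 9 of them, with CA9 not analysed there, and the mouse tables held 8, with Ca9 and Egln3 not analysed there. A change in a gene is called here when its adjusted p is under 0.05.

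The series holds RNA-seq of 36 libraries in 18 groups of 2, from established cell lines in ordinary culture. No group was labelled as kept in low oxygen. HepG2, a human liver cancer line, received 5 uM of MS7126, C24, MS7126N1, MS7126N2 or the solvent DMSO for 48 h. MS7126 is a PROTAC, a molecule that brings a protein to a ubiquitin ligase for degradation, directed at EZH2, the enzyme that methylates histone H3 at lysine 27 as part of PRC2. C24 is the matched inhibitor of the enzyme's SET domain, and MS7126N1 and MS7126N2 are control analogs without PROTAC activity. Huh7, another human liver cancer line, received 5 uM of MS7126 or DMSO for 24 h by its own label, although a label shared with another line gives 48 h. WEHI-231, a mouse B lymphoma line, received 1 uM of the EZH2 PROTAC MS8815, the inhibitor EPZ-6438, the analog MS8815N or DMSO for 16 h. Short hairpins were delivered with pLKO.1-puro lentivirus and puromycin selection: shEZH2 in Huh7, and shEZH2 or 3 hairpins numbered 664, 665 and 667 against SREBP2, the sterol-regulating transcription factor encoded by SREBF2, in HepG2. The control hairpin is called an empty vector in some labels and a scramble in others, and all hairpin groups, controls included, passed through infection and selection. No label states that paired libraries were grown as separate cultures. The p-values therefore reflect spread among those libraries alone, which may be technical. In the Huh7 hairpin groups the variance between the libraries of a group was 1.63 (control) and 1.55 (shEZH2) times that from counting alone. Whether these were separate cultures was not tested.

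Cells sense oxygen through prolyl hydroxylases, which mark the alpha subunits of the hypoxia-inducible factors HIF-1 and HIF-2 for destruction by the VHL ubiquitin ligase while oxygen is present. When oxygen is short, the alpha subunits persist, pair with ARNT and bind a short core sequence near their target genes. The targets carry signals for blood vessel growth, glucose uptake, a shift from respiration to glycolysis, pH control, mitophagy and collagen maturation. Because the alpha subunits are set mainly by protein stability, the mRNA of HIF1A or EPAS1 is no measure of HIF activity.

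The core sequence bound by HIF was looked for first, since the genes were grouped as its targets. RefSeq's promoter table for GRCh38.p14 held 8 of the 10 genes, with 2 start sites for PDK1, and the 250 bases before each start were searched for ACGTG on both strands. Because CACGT is the same word on the other strand, CACGTG counts as a pair of overlapping matches. The word lay in the windows of 5 of the 8 genes. Counted by window it was in 5 of 9, and in 18.5% of 35116 promoters of the same length. The 30 bases around the matches are shown for those 5 genes, 5′ to 3′ on the gene's strand, with every match in capitals.
PDK1, chr2:172556060-172556089, plus strand: ccctgctgcccgcCACGTccctCACGTacc
ANKRD37, chr4:185396676-185396705, plus strand: ctcCACGTGccagtgtttgtgtACGTGcgg
CA9, chr9:35673897-35673926, plus strand: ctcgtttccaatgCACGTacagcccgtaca
P4HA1, chr10:73096936-73096965, minus strand: gtgtgatcgagctCACGTagcgagggctgc
BNIP3, chr10:131982040-131982069, minus strand: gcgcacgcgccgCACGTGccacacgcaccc
The PDK1 stretch ends at the base before the second of its listed starts, and the CA9 match begins 18 bases before the start. BNIP3 and ANKRD37 share the palindrome CACGTG, and ANKRD37 holds a further match downstream of it. No match was found in these windows for SLC2A1, ADM or EGLN3. For SLC2A1, ANKRD37 and ADM all 250 bases were annotated exon and lay inside the annotated gene. The window of EGLN3 also lay inside its annotated gene, with 7 exon bases. For these genes the search therefore did not cover the sequence before the first annotated start. The windows of CA9, P4HA1, BNIP3 and the second PDK1 start held 90 to 121 exon bases. With GCGTG counted as well, ADM also had a match, making 6 of 8 genes and 6 of 9 windows, against 43.2% of all promoters. A match describes the letters only, and no binding was measured in this series.

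In the GRCh38 annotation the 10 genes lie on 9 chromosomes, and several overlap exons of a neighbour: CA9 those of ARHGEF39 and ANKRD37 those of UFSP2, both on the opposite strand, and VEGFA, SLC2A1, PDK1 and P4HA1 those of antisense or unnamed transcripts. The strand setting of the counting is not given in the sources used here, so reads from such pairs cannot be told apart. BNIP3 has 39 annotated pseudogenes named after it, and how reads shared with them were assigned is not known, which leaves its counts less certain.

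Levels in control cells differed between the lines. The values that follow are the control group's normalized count over the summed gene means of its table, scaled to 1000000, rebuilt from the authors' deposited table, and the tables were normalized separately, so no test sets them against each other. SLC2A1, which encodes the glucose transporter GLUT1, stood at 594 to 622 per 1000000 in HepG2 under DMSO and at 34.5 in Huh7 under DMSO. NDRG1, a stress-responsive gene of growth arrest, had the other order, at 15.7 to 16.7 per 1000000 in HepG2 under DMSO and 144 in Huh7. EGLN3, the oxygen-sensing prolyl hydroxylase PHD3 that is itself a HIF target, was at 0.138 to 0.199 per 1000000 in HepG2 and 6.18 in Huh7. The DMSO and hairpin control groups of HepG2 differed too: VEGFA, the main growth signal for vessels, stood at 10.1 to 10.4 per 1000000 under DMSO and at 53.5 to 56.6 with the control hairpin. CA9, the cell-surface carbonic anhydrase that is used as a marker of hypoxia, stood at 0.387 to 0.501 and 4.36 to 4.61 in those groups. The rebuilt control levels of these genes thus differed between the compound and hairpin experiments in HepG2. Whether this lies in the cells or in how the libraries were made and counted was not tested.

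**Figure D1:**
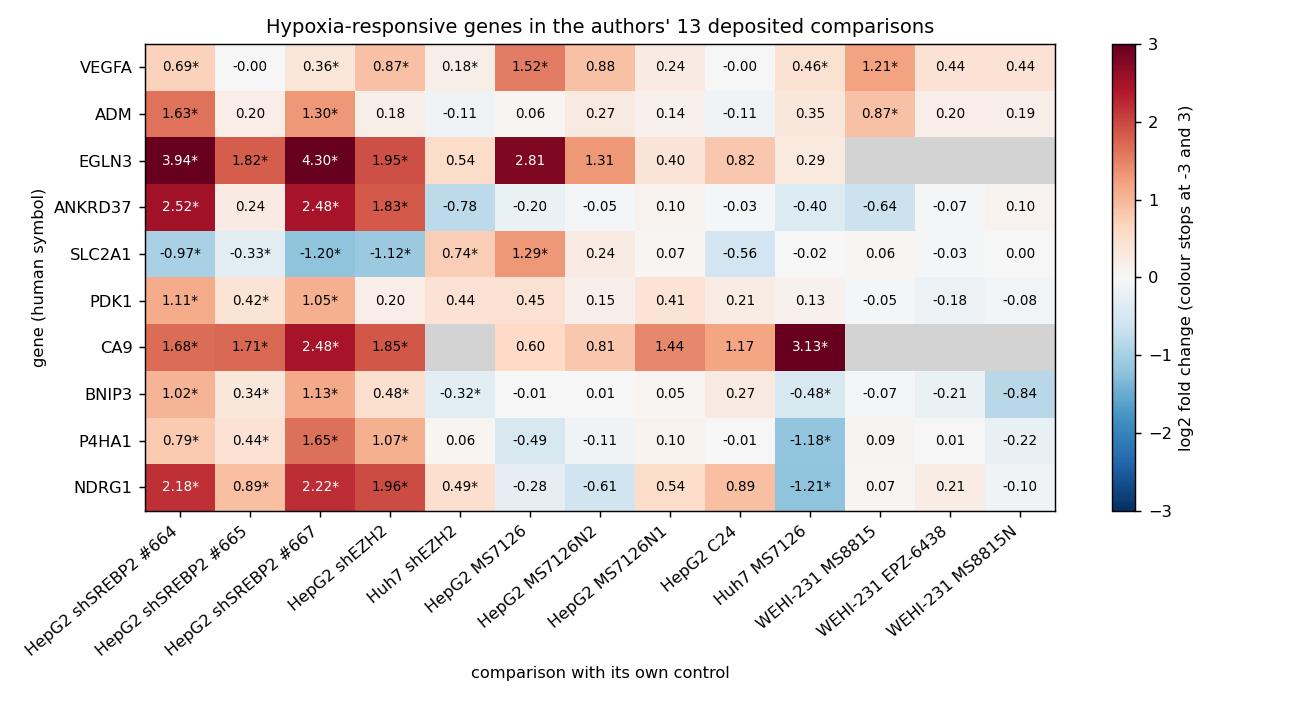
Log2 fold change of each gene (rows) over its own control in the authors' 13 deposited tables (columns); a star marks an adjusted p under 0.05, grey a gene not analysed in that table, and colour stops at -3 and 3. The 4 HepG2 hairpin columns are red for most genes and blue for SLC2A1, while the columns of C24, MS7126N1, MS7126N2, EPZ-6438 and MS8815N hold no star.

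The largest fold changes and the most calls were in HepG2 cells with hairpins. Each of the 10 genes had a smaller SE there than with any compound in HepG2, so the numbers of calls are not like for like. NDRG1, for example, stood at 0.89 both with hairpin 665 (SE 0.12) and with C24 (SE 0.32), and only the first was called. Against the control hairpin, the SREBP2 hairpins 664 and 667 each raised 9 of the 10 genes and lowered SLC2A1, and hairpin 665 raised 6 and lowered SLC2A1. Among all genes tested, 24.9% were called higher and 26.8% lower with hairpin 664, 18.7% and 20.0% with 665, and 18.6% and 19.3% with 667. The median log2 fold change of the 10 genes was 1.37, 0.38 and 1.47 for hairpins 664, 665 and 667, against 0.01 over all genes tested in each of these tables. In such bulk samples fewer expressing cells and less RNA per cell cannot be told apart. These comparisons share 1 pair of control libraries, so they are not independent of each other, and their values are given side by side without a test between them.

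The libraries labelled shEZH2 in HepG2 were set against the same pair of controls. There 7 of the 10 genes were higher and SLC2A1 was lower, where 28.4% of all genes tested were called higher and 28.6% lower, and the median of the 10 genes was 0.97 against 0.00 over all genes. EZH2 mRNA itself was higher in these libraries, at 0.90 on the log2 scale (SE 0.38, adjusted p = 0.0337 in the authors' deposited table), which goes against the label. Its SE was 2.03 log2 units above that of genes of the same level. SREBF2 mRNA, at 0.43 (SE 0.35, adjusted p = 0.288), had an SE 2.67 above that trend in the authors' deposited table, and the 5.8S ribosomal RNA row one 2.80 above it. The SEs of the 10 hypoxia genes lay between -0.15 and 0.06 of that trend. Whether the pair of libraries carries 1 condition, and whether the label is right, was not tested. In the SREBP2 hairpin groups the targeted mRNA SREBF2 fell, by 1.58 (SE 0.06), 1.08 (SE 0.12) and 2.35 (SE 0.42) on the log2 scale for 664, 665 and 667 in the authors' deposited tables. For 667 the SE of SREBF2 was 1.90 log2 units above the trend and that of the 5.8S row 1.73, and those of the 10 genes were between -0.06 and 0.34 of it.

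Among the signals that cells send out, VEGFA and the vasodilator peptide gene ADM both rose with 664 and 667, and neither passed the test with 665. VEGFA stood at a log2 fold change of 0.69 (SE 0.05), -0.00 (SE 0.11) and 0.36 (SE 0.12) with hairpins 664, 665 and 667 in the authors' deposited tables, and at 0.87 (SE 0.07) in the libraries labelled shEZH2. It was called with 664, 667 and the shEZH2 label, and with 665 its adjusted p was 0.989 (95% interval -0.21 to 0.21). ADM rose by 1.63 (SE 0.08) with 664 and 1.30 (SE 0.13) with 667 in the authors' deposited tables. With 665 and with the shEZH2 label ADM was at 0.20 (adjusted p = 0.267) and 0.18 (adjusted p = 0.21) in the authors' deposited tables, and neither passed the test. When the fold changes were centred on the median gene, ADM passed with the shEZH2 label, at 0.29 (adjusted p = 0.0427).

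The oxygen sensor EGLN3 had the largest fold change of the 10 genes with hairpins 664 and 667. Rebuilt from the authors' deposited tables, its level went from 17.4 to 268 normalized counts with 664 and from 14.6 to 288 with 667, at log2 fold changes of 3.94 (SE 0.31) and 4.30 (SE 0.34). With 665 and the shEZH2 label the rise was 1.82 (SE 0.54, adjusted p = 0.00329) and 1.95 (SE 0.54, adjusted p = 0.000807) in the authors' deposited tables, from 14.7 to 52.0 and from 13.0 to 50.2 normalized counts. The control level of about 13 to 17 counts limits the precision of these folds. ANKRD37, an ankyrin-repeat gene known as a HIF-1 target, rose by 2.52 (SE 0.12) with 664, 2.48 (SE 0.17) with 667 and 1.83 (SE 0.17) with the shEZH2 label in the authors' deposited tables. With 665 ANKRD37 was at 0.24 (SE 0.24, adjusted p = 0.457 in the authors' deposited table). UFSP2, whose exons ANKRD37 overlaps, lay between -0.36 and -0.20 in the authors' 4 deposited tables, and it passed the test in none of them.

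The metabolic genes split into opposite directions. SLC2A1 was lower with all 4 hairpins, at -0.97 (SE 0.02), -0.33 (SE 0.09), -1.20 (SE 0.09) and -1.12 (SE 0.04) for 664, 665, 667 and the shEZH2 label in the authors' deposited tables. Its rebuilt level fell from 31840 to 16213 normalized counts with 664 and from 26711 to 11631 with 667. PDK1 encodes a kinase that shuts pyruvate out of the mitochondrial citric acid cycle, and it rose by 1.11 (SE 0.09), 0.42 (SE 0.15) and 1.05 (SE 0.15) with 664, 665 and 667 in the authors' deposited tables. With the shEZH2 label PDK1 stood at 0.20 (SE 0.13, adjusted p = 0.203 in the authors' deposited table), and it passed once centred, at 0.30 (adjusted p = 0.0449). CA9 rose in all 4 comparisons, by 1.68 (SE 0.16), 1.71 (SE 0.22), 2.48 (SE 0.18) and 1.85 (SE 0.18) for 664, 665, 667 and the shEZH2 label in the authors' deposited tables. Its overlapping neighbour ARHGEF39 lay between -0.11 and 0.04, without passing the test in any of the authors' 4 deposited tables.

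The genes of mitophagy, collagen and growth arrest rose in all 4 comparisons. BNIP3, which marks mitochondria for removal, was at 1.02 (SE 0.04), 0.34 (SE 0.11), 1.13 (SE 0.10) and 0.48 (SE 0.06) for 664, 665, 667 and the shEZH2 label in the authors' deposited tables. P4HA1, a subunit of the enzyme that hydroxylates collagen prolines, was at 0.79 (SE 0.05), 0.44 (SE 0.11), 1.65 (SE 0.10) and 1.07 (SE 0.07) in the same order in the authors' deposited tables. NDRG1 was at 2.18 (SE 0.06), 0.89 (SE 0.12), 2.22 (SE 0.11) and 1.96 (SE 0.08) in that order in the authors' deposited tables. Its rebuilt level went from 930 to 4218 normalized counts with 664 and from 781 to 1452 with 665.

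**Figure D2:**
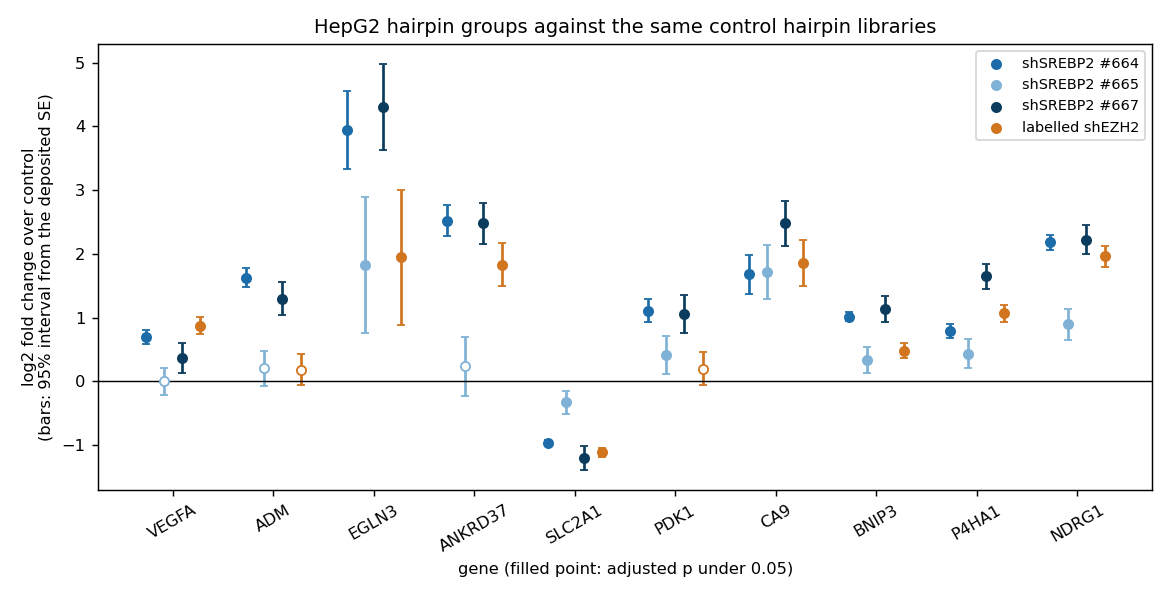
Log2 fold change over the shared control hairpin libraries (y axis) for each gene (x axis) in 4 HepG2 hairpin groups; bars are 95% intervals from the deposited SE, and filled points have an adjusted p under 0.05. EGLN3 reaches 3.94 and 4.30 with hairpins 664 and 667, and SLC2A1 lies under 0 with every hairpin.

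The rest of the pathway was counted from lists that were chosen with earlier results of these data known. Of 28 other HIF targets, the authors' deposited tables had 22 higher and 4 lower with 664, 15 and 4 with 665, 19 and 2 with 667, and 16 and 6 with the shEZH2 label. LOX, which crosslinks collagen, rose by 3.31 (SE 0.15) with 667 and 1.51 (SE 0.17) with 665 in the authors' deposited tables. Glycolysis genes did not share 1 direction: of 18, there were 9 higher and 8 lower with 664, 3 and 7 with 665, 10 and 2 with 667, and 3 and 9 with the shEZH2 label. PGAM1, a glycolytic mutase, fell by 0.68 (SE 0.03) with 664 in the authors' deposited table, while SLC2A3, the gene of a second glucose transporter, GLUT3, rose by 1.35 (SE 0.09) with 667. In the list of HIF factors and regulators, HIF1A was lower in all 4 comparisons, at -0.65 (SE 0.07), -0.39 (SE 0.13), -0.95 (SE 0.13) and -0.94 (SE 0.10) for 664, 665, 667 and the shEZH2 label in the authors' deposited tables. VHL, the recognition subunit of the ligase, was higher in all 4, between 0.55 and 0.98. Of the genes of prolyl hydroxylases, EGLN2 was lower with 664, at -0.96 (SE 0.10), and with 667, at -1.18 (SE 0.15). EGLN1 was lower with the shEZH2 label, at -1.13 (SE 0.10). Of 11 genes of this list tested, 4 were higher and 5 lower with 664, 3 and 5 with 665, 1 and 3 with 667, and 3 and 5 with the shEZH2 label. EPAS1, which encodes HIF-2 alpha, was at 0.15, -0.79, 0.05 and -0.45 in the same order in the authors' deposited tables, and only the value with 667 was not called.

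Other features moved with the hairpin groups. The row for 5.8S ribosomal RNA, a transcript without a poly(A) tail, was higher in all 4 of the authors' deposited tables, at log2 fold changes between 1.56 and 2.35. Of 8 hepatocyte markers, 6 were higher and 1 lower with 664, 2 and 3 with 665, 5 and 2 with 667, and 6 and 1 with the shEZH2 label, with ALB at 1.52 (SE 0.02) for 664 in the authors' deposited table. Their summed mean ranged from 903832 to 1571750 normalized counts over the 4 tables. COL1A1, a collagen gene of fibroblasts, was lower in all 4, between -3.54 and -1.14. PDGFRB, a receptor gene of fibroblasts and pericytes, was lower with 664 (-0.47) and higher with 665 (0.59), 667 (1.29) and the shEZH2 label (0.59) in the authors' deposited tables. Markers of fibroblasts and endothelium summed to 557 to 783 normalized counts, with 4 or 5 of 6 having a row, and B cell markers to 53.0 to 95.7 with 2 or 3 of 8 having a row. The part of these features in the hypoxia genes' changes was not tested.

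**Figure D3:**
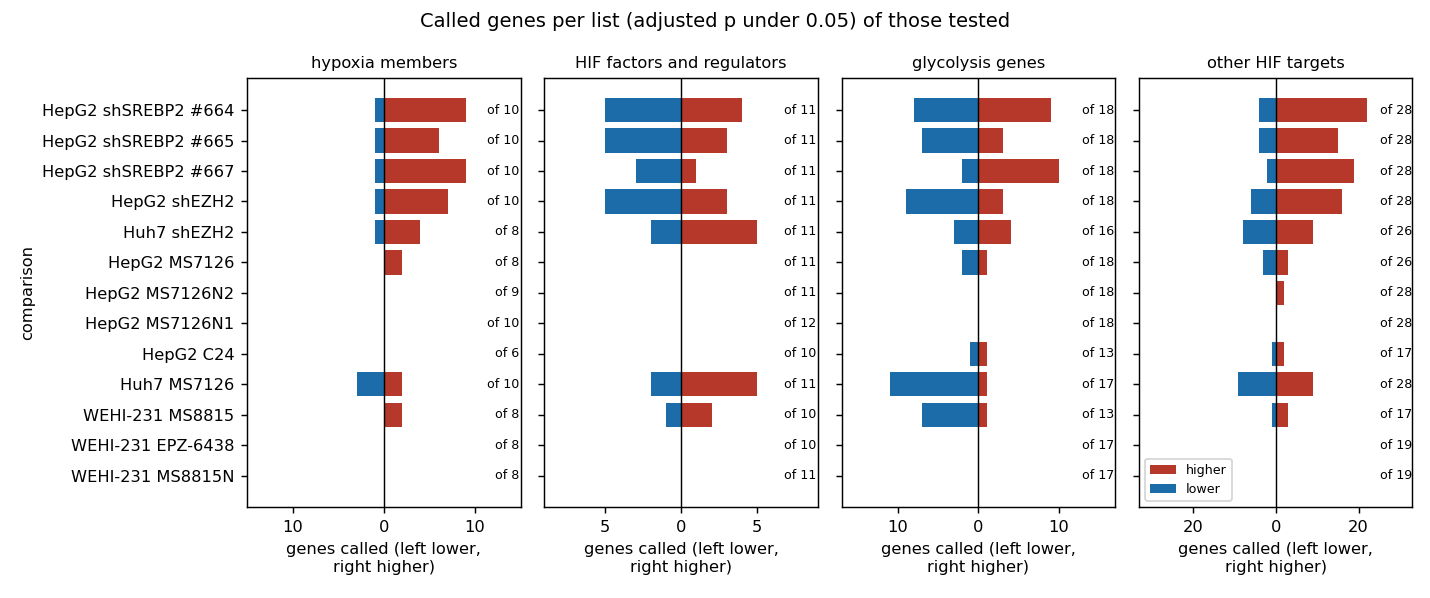
Number of genes called higher (red, to the right) and lower (blue, to the left) at an adjusted p under 0.05 in each comparison (y axis), for the 10 hypoxia genes and 3 other lists; the number tested stands at the right edge. The Huh7 shEZH2 row was counted by edgeR and the other rows from the authors' deposited tables, so that row is not like for like. For the hypoxia genes edgeR called 5 there, against 4 in the authors' deposited table. Other HIF targets are mostly red in the 4 HepG2 hairpin rows, and glycolysis genes are mostly blue for MS7126 in Huh7, with 11 of 17 lower.

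In HepG2 treated with MS7126, VEGFA and SLC2A1 were higher and no other gene of the set was called. These were 2 of 8 genes tested, where 7.44% of all genes were called higher and 8.06% lower. VEGFA went from a rebuilt level of 173 normalized counts under DMSO to 496, which is 1.52 on the log2 scale (SE 0.32, adjusted p = 5.41e-05 in the authors' deposited table). SLC2A1 went from 9967 to 24359, which is 1.29 on the log2 scale (SE 0.25, adjusted p = 4.85e-06 in the authors' deposited table). The direction of SLC2A1 was opposite to that with the hairpins in the same line, although the experiments had separate controls and the difference between them was not tested. The SE of SLC2A1 was 0.78 to 1.06 log2 units above the trend in all 4 HepG2 compound tables, which share their DMSO libraries.

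The remaining genes gave no call with MS7126 in HepG2. NDRG1 was at -0.28 (SE 0.38), ADM at 0.06 (SE 0.42), BNIP3 at -0.01 (SE 0.18), ANKRD37 at -0.20 (SE 0.74) and PDK1 at 0.45 (SE 0.33) in the authors' deposited table. P4HA1 was at -0.49 (SE 0.23, adjusted p = 0.148 in the authors' deposited table). EGLN3, with a mean of 11.8 normalized counts, was at 2.81 (SE 1.22), and CA9, with a mean of 8.20, was at 0.60 (SE 2.10); the authors' deposited table gives neither an adjusted p. The median of the 8 genes tested was 0.03 against 0.01 over all genes. Of 26 other HIF targets 3 were higher and 3 lower, with DDIT4, a stress-induced brake on mTOR, at 2.61 (SE 0.23) in the authors' deposited table. VEGFA and DDIT4 are known targets of ATF4 as well as of HIF, and 7 of 7 tested genes of an ATF4 list were higher, with TRIB3 at 2.71 (SE 0.14) in the authors' deposited table. Of the hepatocyte markers 5 of 8 were lower, and none of the 11 HIF factors and regulators tested was called (2 had an unadjusted p under 0.05). The part of these changes in those of VEGFA and SLC2A1 was not tested.

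C24, MS7126N1 and MS7126N2 gave no call among the genes in the authors' deposited tables. The inhibitor C24 had 6 of them with an adjusted p and 2 with an unadjusted p under 0.05, where 3.01% of all genes were called higher and 4.01% lower. These 2 were NDRG1 at 0.89 (SE 0.32, adjusted p = 0.0665) and SLC2A1 at -0.56 (SE 0.22, adjusted p = 0.0962) in the authors' deposited table. MS7126N1 had 10 genes tested and 0 with an unadjusted p under 0.05 in the authors' deposited table, where 0.0744% of all genes were called higher and 0.085% lower. For MS7126N2 the authors' deposited table had 9 tested and 1 with an unadjusted p under 0.05, VEGFA at 0.88 (SE 0.35, adjusted p = 0.535), where 0.362% of all genes were called higher and 0.341% lower. Of the ATF4 list, 3 of 7 tested genes were higher with MS7126N2, 1 of 5 with C24 and 0 of 7 with MS7126N1, and none was lower. DDIT4 was called higher with MS7126N2, at 1.48 (SE 0.26), and with C24, at 1.09 (SE 0.25), in the authors' deposited tables. The response of DDIT4 and the ATF4 list was thus not confined to MS7126.

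The compounds were then set against each other at the same dose and time, in 6 pairs, each gene's difference in log2 fold change being tested over all genes of the pair. SLC2A1 was higher with MS7126 than with C24 by 1.85 (95% interval 1.21 to 2.49, adjusted p = 1.85e-06 by the normal test) and higher than with MS7126N1 by 1.22 (0.50 to 1.95, adjusted p = 0.033). It was the 1 gene of the set that differed in either pair, where 1.87% and 1.32% of all genes were called higher with MS7126. Against MS7126N2 the difference in SLC2A1 was 1.05 (0.36 to 1.75) with an adjusted p of 0.145, where 1.35% of all genes differed, so it did not pass, and its interval does not show that the pair acts alike. VEGFA was 1.53 higher with MS7126 than with C24 (0.51 to 2.54, adjusted p = 0.0625), 1.29 higher than with MS7126N1 (0.14 to 2.44, adjusted p = 0.353) and 0.64 higher than with MS7126N2 (-0.28 to 1.57), and none of these passed. No gene of the set differed between C24, MS7126N1 and MS7126N2, where 0.111%, 0.333% and 0.0776% of all genes did for C24 against MS7126N1, C24 against MS7126N2 and MS7126N1 against MS7126N2. In these 3 pairs 0, 2 and 1 genes had an unadjusted p under 0.05, NDRG1 with C24 against MS7126N2 standing at 1.50 (0.50 to 2.51). Because all share the DMSO libraries, the test, which ignores that, gives wide intervals. With a covariance added for them, the difference passed for VEGFA and NDRG1 between MS7126 and C24, for SLC2A1 between MS7126 and MS7126N2, and for NDRG1 between C24 and MS7126N2.

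In Huh7, MS7126 lowered 3 of the 10 genes and raised 2, where 16.3% of all genes were called lower and 17.5% higher. NDRG1 fell from a rebuilt level of 3014 normalized counts to 1307, which is -1.21 on the log2 scale (SE 0.13, adjusted p = 8.76e-18 in the authors' deposited table). P4HA1 fell from 1509 to 665, at -1.18 (SE 0.17, adjusted p = 3.77e-11 in the authors' deposited table). BNIP3 was at -0.48 (SE 0.13, adjusted p = 0.00116 in the authors' deposited table). The 3 genes that fell are those of growth arrest, collagen and mitophagy, which were higher with every hairpin in HepG2. CA9 and EGLN3 were also higher with every hairpin there, and with MS7126 in Huh7 CA9 was called higher and EGLN3 was not called.

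VEGFA was higher with MS7126 in Huh7, at 0.46 (SE 0.15, adjusted p = 0.00947 in the authors' deposited table). CA9 was at 3.13 (SE 1.20, adjusted p = 0.0301 in the authors' deposited table), from 2.44 to 21.3 normalized counts, and such low counts leave its size uncertain (95% interval 0.77 to 5.48). ADM at 0.35 (SE 0.22), EGLN3 at 0.29 (SE 0.35), PDK1 at 0.13 (SE 0.30), ANKRD37 at -0.40 (SE 1.18) and SLC2A1 at -0.02 (SE 0.18) did not pass in the authors' deposited table. UFSP2, which overlaps ANKRD37, was called higher there, at 1.04 (SE 0.28, adjusted p = 0.000901 in the authors' deposited table). ARHGEF39, which overlaps CA9, was at -0.37 (SE 0.17) and was not called. The median of the 10 genes was 0.06 against -0.01 over all genes. Glycolysis genes were mostly lower, 11 of 17 with 1 higher, including PFKFB3 at -1.22 (SE 0.14) and GPI at -0.99 (SE 0.12) in the authors' deposited table. Other HIF targets had 9 of 28 higher and 9 lower, among them STC2 at 3.74 (SE 0.22) in the authors' deposited table. EGLN1, the main oxygen-sensing hydroxylase, was at 1.10 (SE 0.15), HIF1A at 0.63 (SE 0.12) and EPAS1 at -0.48 (adjusted p = 0.0415) in the authors' deposited table. All 8 genes of the ATF4 list were higher and 7 of 8 hepatocyte markers lower. Of markers of other cell types, PTPRC, a gene of white blood cells with a mean of 32.2 normalized counts, was at 4.51 (SE 1.46), COL1A1 at 2.36 (SE 0.76) and the endothelial PECAM1 at -0.89 (SE 0.30), all of which passed the test in the authors' deposited table. The part of these features in the hypoxia genes' changes was not tested.

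The response to MS7126 was set between the lines, which share no library but differ in time by their labels. SLC2A1 changed by 1.31 less in Huh7 than in HepG2 on the log2 scale (difference -1.31, SE 0.31, 95% interval -1.91 to -0.71, adjusted p = 0.00121 by the normal test), where 3.06% of all genes were called lower in Huh7. It was the 1 gene of 10 that passed. For VEGFA the difference was -1.06 (-1.76 to -0.36, adjusted p = 0.0509), and for NDRG1 and P4HA1 it was -0.92 (-1.71 to -0.13, adjusted p = 0.199) and -0.69 (-1.25 to -0.13, adjusted p = 0.159). BNIP3 differed by -0.47 (-0.92 to -0.03, adjusted p = 0.264) and EGLN3 by -2.52 (-5.00 to -0.04, adjusted p = 0.302). Of the 10 genes, 6 had an unadjusted p under 0.05. After adjustment the fall of NDRG1, P4HA1 and BNIP3 in Huh7 is thus not shown to differ from HepG2, and their intervals do not show that the lines respond alike. The cell line and the time of treatment cannot be told apart in this comparison.

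**Figure D4:**
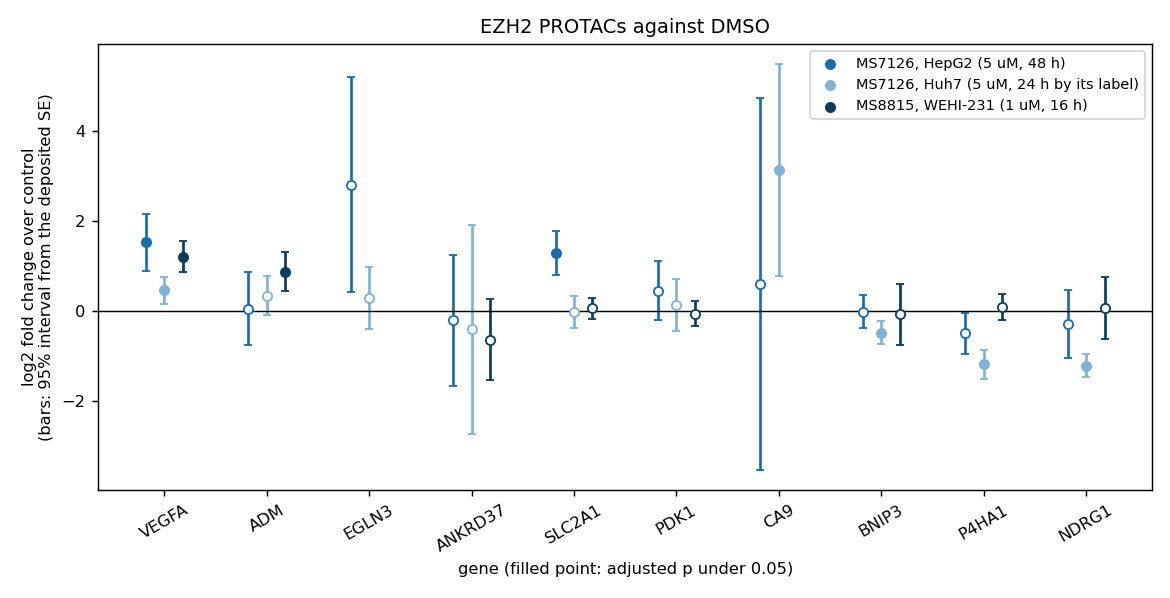
Log2 fold change over DMSO (y axis) for each gene (x axis) with MS7126 in HepG2 and Huh7 and MS8815 in WEHI-231; bars are 95% intervals from the deposited SE, and filled points have an adjusted p under 0.05, open points a higher or no adjusted p. VEGFA is filled in all 3 lines, at 1.52, 0.46 and 1.21, and the intervals of CA9, EGLN3 and ANKRD37 are wide.

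In Huh7 with shEZH2, counts per library were at hand, with totals of 10106193 to 11954322 estimated counts, and the changes were small. EZH2 itself fell, from 921 and 1000 normalized counts in the control libraries to 148 and 156 (log2 fold change -2.65, SE 0.08). By edgeR's quasi-likelihood test 4 of the 8 genes tested were higher and 1 lower, where 19.5% of 14581 genes were called higher and 19.3% lower, and the median was 0.31 against 0.00 over all genes. NDRG1 had 2322 and 2267 normalized counts in the control libraries and 3260 and 3214 with shEZH2. The groups did not overlap in 7 of the 8 genes, all but P4HA1, and nothing is read from this, since 68.6% of all genes tested showed no overlap. For NDRG1 the log2 fold change was 0.50 (SE 0.03, adjusted p = 4.05e-09 by edgeR). The SEs given with edgeR values were not fitted but worked back, as the fold change over the root of the test's F score. They were smaller than the SEs in the authors' deposited table, at 0.03 against 0.05 for NDRG1 and 0.07 against 0.12 for SLC2A1.

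SLC2A1 had 275 and 295 normalized counts in the control libraries and 469 and 485 with shEZH2. Its log2 fold change was 0.75 (SE 0.07, adjusted p = 8.48e-07 by edgeR). VEGFA stood at 1128 and 1065 normalized counts against 1236 and 1257. That is a rise of 0.18 (SE 0.05, adjusted p = 0.00411 by edgeR), the smallest of the called changes. EGLN3 had 92.4 and 83.5 normalized counts in the control libraries and 119 and 137 with shEZH2. Its rise of 0.54 (SE 0.14) had an adjusted p of 0.00624 by edgeR, 0.0873 by DESeq2 and 0.0878 in the authors' deposited table, and without shEZH2 replicate 2 it was 0.43 (adjusted p = 0.0574 by edgeR). BNIP3 was the gene that fell, from 1089 and 1111 normalized counts to 882 and 878 (-0.32, SE 0.05, adjusted p = 4.02e-05 by edgeR).

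PDK1 had 70.6 and 65.7 normalized counts in the Huh7 control libraries and 103 and 81.6 with shEZH2. Its log2 fold change of 0.43 (SE 0.18) had an adjusted p of 0.0622 by edgeR, and of 0.0175 without shEZH2 replicate 2, the lower of the pair, when it stood at 0.60. Without shEZH2 replicate 1 PDK1 was at 0.26 (adjusted p = 0.391 by edgeR). ADM, with 207 and 219 against 203 and 192 normalized counts, was at -0.11 (SE 0.10, adjusted p = 0.409 by edgeR). P4HA1, with 690 and 698 against 755 and 689, was at 0.06 (SE 0.06, adjusted p = 0.48 by edgeR), and its groups overlapped. ANKRD37 was too low to be tested. Among 16 glycolysis genes 4 were higher and 3 lower by edgeR, with PGK1, the phosphoglycerate kinase, at -0.53 (SE 0.03). Other HIF targets had 9 of 26 higher and 8 lower by edgeR, with LOX at 1.41 (SE 0.04). HIF1A was at 0.16 (SE 0.03) and EPAS1 at -0.01 (SE 0.03), and 5 of 8 genes of the ATF4 list were lower by edgeR, ATF4 at -0.18 (SE 0.03). Of the hepatocyte markers 2 were higher and 5 lower of 8. Of 3 fibroblast and endothelial markers tested, 2 were higher and 1 lower by edgeR. The collagen gene COL1A2, a fibroblast marker, was at 3.08 (SE 0.12), PDGFRB at 0.88 (SE 0.19) and the endothelial PECAM1 at -1.32 (SE 0.29). The fibroblast and endothelial markers summed to a mean of 427 normalized counts over the 3 of 6 tested, and their part in the hypoxia genes' changes was not tested.

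**Figure D5:**
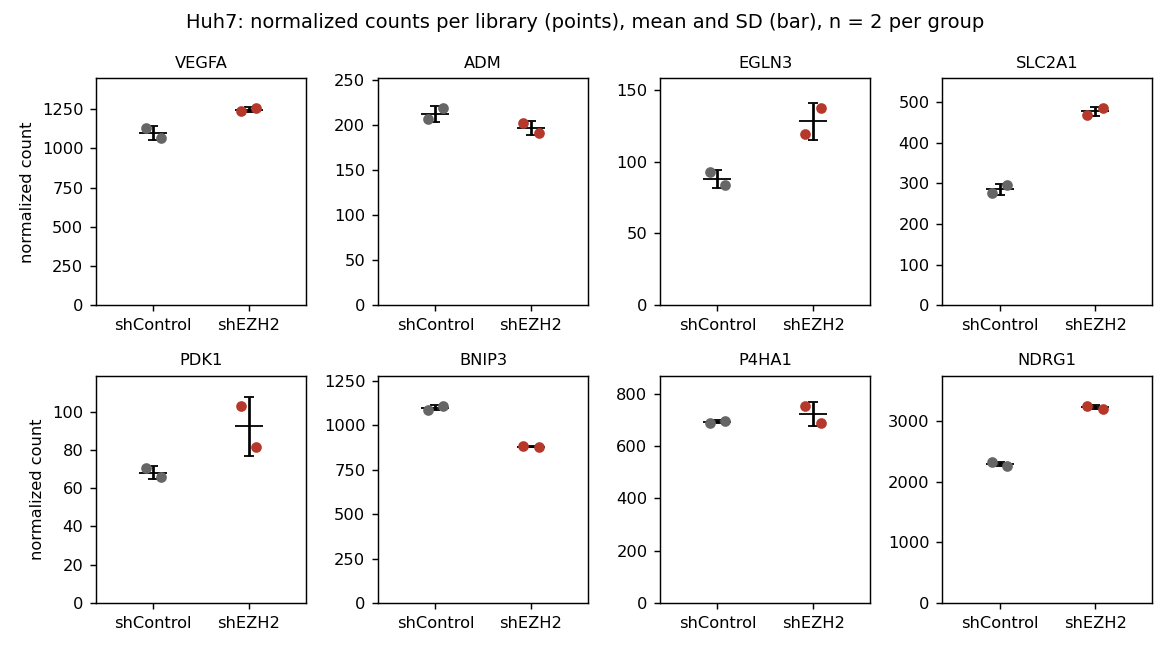
Normalized counts per library (points), with the mean and SD of 2 libraries (bar), for 8 genes in Huh7 with the control hairpin and with shEZH2; each y axis starts at 0. NDRG1 and SLC2A1 are higher in both shEZH2 libraries, BNIP3 is lower in both, and P4HA1 overlaps between the groups.

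In the mouse line WEHI-231, where all 8 B cell markers were present, MS8815 raised the secreted signals Vegfa and Adm. These were 2 of 8 genes tested, where 5.34% of all genes were called higher and 11.8% lower. Vegfa went from a rebuilt level of 276 normalized counts under DMSO to 638, which is 1.21 on the log2 scale (SE 0.17, adjusted p = 2.46e-10 in the authors' deposited table). Adm went from 205 to 375, at 0.87 (SE 0.22, adjusted p = 0.00107 in the authors' deposited table). Ndrg1 at 0.07 (SE 0.35), Bnip3 at -0.07 (SE 0.34), Ankrd37 at -0.64 (SE 0.46), Slc2a1 at 0.06 (SE 0.12), Pdk1 at -0.05 (SE 0.14) and P4ha1 at 0.09 (SE 0.15) did not pass in the authors' deposited table. The intervals of Slc2a1 (-0.17 to 0.29) and Pdk1 (-0.33 to 0.22) leave room for small changes only.

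With EPZ-6438 and with MS8815N no gene of the set was called in the authors' deposited tables, and 1 and 2 of the 8 tested had an unadjusted p under 0.05. The called shares of all genes were 0.122% higher and 0.122% lower for EPZ-6438, and 0.0501% and 0.0689% for MS8815N. Vegfa was at 0.44 (SE 0.20) with EPZ-6438 and 0.44 (SE 0.22) with MS8815N in the authors' deposited tables, and Adm at 0.20 (SE 0.25) and 0.19 (SE 0.26). Bnip3 was at -0.84 (SE 0.41) with MS8815N in the authors' deposited table. At the same dose and time the rise in Vegfa with MS8815 exceeded that with EPZ-6438 by 0.77 (95% interval 0.26 to 1.29, adjusted p = 0.0887 by the normal test) and that with MS8815N by 0.77 (0.23 to 1.31, adjusted p = 0.163). Neither passed, nor did any other gene of the set in the 3 pairs, in which 3.09%, 1.98% and 0.0255% of all genes differed for MS8815 against EPZ-6438, MS8815 against MS8815N and EPZ-6438 against MS8815N. In these pairs 2, 2 and 0 of the 8 genes had an unadjusted p under 0.05. With a covariance added for the DMSO libraries, the difference in Vegfa passed in both pairs with MS8815 (adjusted p = 0.0024 and 0.00999). Between EPZ-6438 and MS8815N the difference in Vegfa was -0.01 (-0.58 to 0.57).

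Under MS8815 the glycolysis genes had 7 of 13 lower and 1 higher, with Ldha, lactate dehydrogenase A, at -0.54 (SE 0.05) in the authors' deposited table. Other HIF targets had 3 of 17 higher and 1 lower, with Hmox1, heme oxygenase, at 1.88 (SE 0.31) in the authors' deposited table. Hif1a was at 0.29 (SE 0.07, adjusted p = 0.000772) and Atf4 at 0.24 (adjusted p = 0.00126) in the authors' deposited table, and 6 of 7 genes of the ATF4 list were higher. The B cell markers had 5 of 8 lower, and their part in these changes was not tested.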

How the data were processed

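Reads were aligned and quantified with STAR 2.4.2 and Salmon on GRCh38 or mm10, per the submitters' processing notes; parameters: not given in the sources used here. For each comparison the authors deposited a mean normalized count per gene as a signal, log2 fold changes with their SE, a test score (the ratio of those), and p-values with and without adjustment, in the column layout of DESeq2 per the file headers. The summed mean was 11109680 to 40979203 per table. For Huh7 shEZH2, the authors deposited estimated counts and log2 normalized values per library too. From it, 20 rows whose symbols had become dates were dropped. For the other 12 tables no values per library were analysed here, so the authors' deposited values were used as they stand, a missing adjusted p stayed missing, and group levels were rebuilt from the mean and the fold change.

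The estimated counts were rounded and tested with edgeR 4.0.16 (R 4.3.3; TMM, filterByExpr, quasi-likelihood test, Benjamini-Hochberg adjustment over all genes tested), and DESeq2 1.42.0 was an alternative. Differences between compounds were divided by the root of their summed squared SEs and given a two-sided normal p, adjusted over all genes of the pair. Both procedures were tested on simulated data. For edgeR these were independent libraries with the spread fitted here and larger changes than those called among the 10 genes in Huh7 with shEZH2. That simulation therefore cannot show how the test behaves on technical replicates or on changes so small. SEs were set against those of genes of like mean in the same table. The main edgeR test did not pair same-numbered libraries, and whether they were paired is not known. The 10 genes and the other lists were chosen with earlier results of these data known. Named besides them were the targeted genes, HIF1A, EPAS1, ATF4 and up to 3 called genes per list with the smallest adjusted p. ARHGEF39, UFSP2 and the 5.8S row were named after their values were seen.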

Additional observations from a re-analysis of the deposited data

Results flagged for a closer look

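The response of SLC2A1 to MS7126 differed between the liver lines by -1.31 on the log2 scale (Huh7 minus HepG2), by the test of the difference itself. It was 1.29 (SE 0.25) in HepG2 and -0.02 (SE 0.18) in Huh7, the SE in HepG2 was 0.85 log2 units above that of genes of its level, and the labels give 48 h in HepG2 and 24 h in Huh7.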

How the results depend on the processing

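The number of hypoxia genes called in Huh7 with shEZH2 was 5 and stayed between 5 and 5 when each of the 4 libraries was left out, though not of the same genes: without shEZH2 replicate 2 EGLN3 was lost (0.43, adjusted p = 0.0574) and PDK1 gained (0.60, adjusted p = 0.0175). It was 4 with DESeq2 and in the authors' deposited table. With a replicate block for the number in the labels it was also 5. Same-numbered libraries of that comparison did not deviate together (correlation -0.024 over 9861 genes). The spread within each group was near that of counting alone, so this correlation cannot tell whether they were paired. Over all genes the block gave 2724 higher and 2703 lower. edgeR called 2838 genes higher and 2811 lower in that comparison, and DESeq2 1703 and 1721. For the other comparisons the count of called genes kept within 1.5 times under each alternative; centring the fold changes on the median gene, a shift of -0.10 for the HepG2 libraries labelled shEZH2, added ADM (0.29, adjusted p = 0.0427) and PDK1 (0.30, adjusted p = 0.0449) there, making 10 instead of 8. Centring moved the share of calls that were higher with MS8815 from 31.2% to 45.4%. The number of hypoxia genes that differed between compounds moved more. For MS7126 minus C24 it was 1, and 2 with only genes of a mean of at least 10 or 3 once a covariance was added for the DMSO libraries in common. For MS7126 minus MS7126N1 it was 1, and 0 at an adjusted p under 0.01. With the covariance it went from 0 to 1 for MS7126 minus MS7126N2, for C24 minus MS7126N2, for MS8815 minus EPZ-6438 and for MS8815 minus MS8815N. For MS7126 in Huh7 minus HepG2 it was 1, and 2 with only genes of a mean of at least 10. No called value changed direction under these alternatives, but 3 uncalled values near 0 did: P4HA1 in Huh7 with shEZH2 went from 0.06 to -0.01 without shEZH2 replicate 1, and on centring VEGFA with hairpin 665 went from -0.00 to 0.07 and BNIP3 with MS7126N2 from 0.01 to -0.01. Depth limits CA9, EGLN3 and ANKRD37 where their means are near 10 normalized counts.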
